A study of Mus musculus with 160 samples.

Results

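The genes described here are the Tal1-Lmo2 transcription complex and the ETS factors that bind beside it. They are the basic helix-loop-helix (bHLH) factors Tal1 and Lyl1, the LIM-domain adaptors Lmo2 and Ldb1, the E proteins Tcf3 and Tcf4, the ETS factors Fli1, Erg and Etv6, and the corepressor Cbfa2t3. They were chosen by name, by matching Ensembl identifiers to GENCODE mouse symbols, and all 10 were found among the 46078 genes of the count table.

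Tal1 or Lyl1 pairs with an E protein and binds a short sequence called an E-box, Lmo2 and Ldb1 bridge that pair to a GATA factor on a nearby GATA site, and Cbfa2t3 brings corepressors to the assembly. ETS factors bind neighbouring GGAA sites, so that blood and endothelial enhancers often carry E-box, GATA and ETS sequences side by side. In the aorta-gonad-mesonephros region (AGM) these factors act in the endothelium from which the first blood stem cells emerge, and Tal1 and Lmo2 are needed for any blood to form.

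The study sorted cells of mouse embryos that carry green fluorescent protein (GFP) at the Gata3 locus, so that GFP reports Gata3 expression, and sequenced pools of 20 cells with Smart-seq2. Each of 8 populations was represented by 20 pools. Endothelial cells (ECs; Cdh5+ CD41- CD45-) and haematopoietic cells (HCs; CD41+ CD45+ in the labels, CD41/45+ in the study's gating) came from E10.5 embryos, and mesenchymal cells (MCs; Pdgfrb+) and sympathetic nervous system cells (SNS; Ngfr+) from E11.5 embryos, each sorted into a GFP+ and a GFP- population. Every embryo had the genotype Gata3-GFP +/-, so GFP+ and GFP- cells carried the same reporter allele, no treatment was applied according to the labels, and C57BL/6J mice were among those crossed to obtain embryos. The E10.5 pools of a population come from far fewer biological replicates, each of several embryos, so pools are not independent embryos. The labels do not tie a pool to an embryo or sort, so p-values measure only the spread between pools, which may be technical. Between the stages, cell type and stage cannot be told apart.

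Of 160 pools, 7 failed the study's limits on reads, and those kept were 19 GFP+ EC, 20 GFP- EC, 20 GFP+ HC, 20 GFP- HC, 20 GFP+ MC, 17 GFP- MC, 18 GFP+ SNS and 19 GFP- SNS pools. They held 1400824 to 16004756 counts on genes. Each level is in CPM, a gene's share of the counts on genes of its pool, after TMM scaling over the 8 populations, and levels of different genes are compared only per kilobase (kb) of merged exons. A count of 3, taken as the floor of detection, was worth 0.187 to 2.14 CPM depending on the pool. The reads are PCR copies without molecular identifiers, so the floor speaks to counting error alone.

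The labels were first checked against marker lists, summed as CPM in each pool. The endothelial sum (Cdh5, Pecam1, Kdr and 5 others) lay between 5731 and 7571 CPM in GFP+ ECs and between 3763 and 5656 CPM in GFP- ECs, and did not exceed 728.4 CPM in any HC pool. The haematopoietic sum (Ptprc, Itga2b, Coro1a and 5 others) lay between 1598 and 3289 CPM in GFP+ HCs and between 3035 and 4625 CPM in GFP- HCs. In ECs it did not exceed 443.5 CPM. On the sympathetic sum (9 genes, among them Th and Dbh) 1 GFP+ HC pool stood apart at 1293 CPM (the next held 613.3), beside a haematopoietic sum of 1598 CPM and a megakaryocyte sum of 15926 CPM. It had the highest Tcf4 of GFP+ HCs (252.2 CPM), the lowest Lyl1 (13.77 CPM) and 101.1 CPM of Tal1. Tests without it, chosen after seeing the data, changed no call of the 10 genes.

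At E11.5, 12 pools went against their labels, 3 in each population. In 3 pools labelled GFP+ MC the sympathetic sum was 1147 to 1604 CPM, against 11.3 to 46.6 CPM in the 17 other pools. In 3 pools labelled GFP- MC it was 2065 to 3510 CPM, against 5.50 to 41.9 CPM in the 14 others. The mesenchymal sum (Pdgfrb, Col1a1, Col3a1 and 5 others) was 2818 to 3047 CPM in 3 pools labelled GFP+ SNS, against 111.6 to 338.4 CPM in the 15 others. It was 4020 to 5400 CPM in 3 pools labelled GFP- SNS, against 380 to 901.4 CPM in the 16 others. Gata3 itself was at 122.6 to 394.7 CPM in the 3 pools labelled GFP- MC (2.52 to 19.02 in the others) and at 9.96 to 24.3 CPM in the 3 labelled GFP+ SNS (111.1 to 305.6 in the others). Those labelled GFP+ MC (16.2 to 82.3 CPM) overlapped the others (19.7 to 70.4), and those labelled GFP- SNS (44.4 to 50.2 CPM) lay within the range of the others (11.2 to 93.9). They are the last 3 columns of each population in the count table, and whether columns were exchanged was not tested. These pools were not moved to another population, and E11.5 tests and levels were also computed without them.

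**Figure D1:**
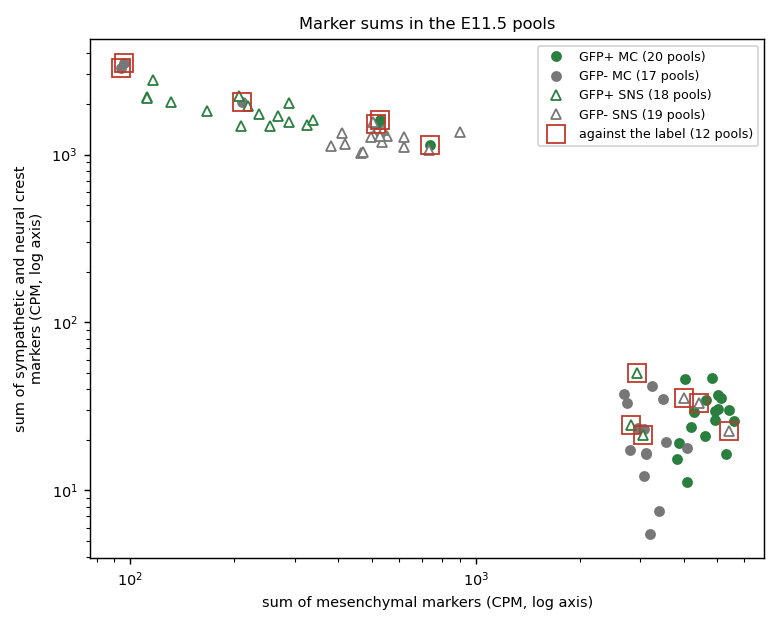
Mesenchymal marker sum (x axis, CPM, log scale) against sympathetic and neural crest marker sum (y axis, CPM, log scale) in each E11.5 pool, by sorted population, with red squares for pools against their label. The 12 red squares lie with the other cell type, such as the 3 pools labelled GFP- MC at 2065 to 3510 CPM of sympathetic markers.

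A second feature separates the stages. The mitochondrial gene mt-Co3 had a mean of 498.3 CPM (lowest pool 269.6) at E10.5 and of 105.7 CPM (highest pool 151.3) at E11.5, and mt-Atp6 likewise did not overlap (lowest 279 and highest 187.2 CPM), while mt-Co1, mt-Cytb and mt-Nd1 overlapped between the stages. These genes were chosen after their values were seen. Handling of the samples therefore cannot be told apart from stage and cell type, and every test here compares pools of 1 stage.

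The first comparison asked whether the complex differs between Gata3-expressing and other endothelium at E10.5. Most of its genes were higher in GFP+ ECs, with Cbfa2t3 and Lyl1 changing most, and the E protein Tcf4 was lower. All 10 passed the filter (at least 10 counts in at least 5 pools). The test was the quasi-likelihood test of edgeR, its p-values adjusted by the Benjamini-Hochberg method over all genes tested (edgeR adjusted p), and calls were made at a value under 0.01 with a log2 fold change beyond 0.1. Of the 10 genes, 7 were higher (19.5% of the 15073 genes tested were) and 1 was lower (16.5%). The median log2 fold change was 0.56 for the 10 genes and 0.10 for all genes tested. In 1 gene, Cbfa2t3, the GFP+ and GFP- pools did not overlap in CPM, as in 3.03% of genes tested. A lower level in a pool of cells can mean fewer cells of a type or less RNA per cell, and these cannot be told apart.

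Scaling mattered in this comparison. When pools were scaled by their ERCC spike-in RNAs instead of TMM, the median log2 fold change of all genes moved from 0.10 to -0.60, and the higher share of all calls moved from 54.1% to 14.3%. Changes under that scaling are therefore to be read beside this median, and values relative to it are given for most of the 10 genes. Of the 10 genes, 4 were then called (Lyl1 and Cbfa2t3 higher, Tcf4 and Fli1 lower), beside 6.31% of all genes tested called higher and 37.7% lower. With scanpy's t-test on scran-scaled values, the kind of test the study used, the higher share of all calls was 43.9%. It called 6 of the 10, beside 16.1% of all genes tested called higher and 20.6% lower. The paper, whose methods text names an adjusted p under 0.01 as the limit, reports more genes up than down in GFP+ ECs.

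Tal1 (ENSMUSG00000028717, chr4:115056426-115071755, plus strand of GRCm38) is the bHLH factor at the centre of the complex. In GFP+ ECs it ranged from 20.8 to 214.7 CPM with a median of 46.8, and in GFP- ECs from 11.7 to 59.7 CPM with a median of 31.4. The pools overlapped, with 6 of 19 GFP+ pools above every GFP- pool and 1 GFP+ pool far above the rest. Tal1 was higher by a log2 fold change of 0.77 (SE 0.20, edgeR adjusted p = 0.00186, 17 of 19 GFP+ pools above the GFP- median). The call was lost with scanpy (0.59, scanpy adjusted p = 0.0154) and with ERCC scaling (0.40, edgeR adjusted p = 0.27), where adjusted p ranged from 0.000254 to 0.27 over 12 alternatives. Relative to the median of all genes, the change was 0.67 with TMM and 0.998 with ERCC scaling.

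Lyl1 (ENSMUSG00000034041, chr8:84701457-84704715, plus strand) is the closest relative of Tal1 and can stand in for it in adult blood cells. GFP+ EC pools held 71.1 to 227.9 CPM of Lyl1 (median 159.8) and GFP- EC pools 27.1 to 122.1 CPM (median 58.7). Overlap was slight, since 16 of 19 GFP+ pools lay above the highest GFP- pool. The log2 fold change was 1.45 (SE 0.15, edgeR adjusted p = 8.52e-11, 19 of 19 GFP+ pools above the GFP- median), and relative to all genes it was 1.35 with TMM and 1.24 with ERCC scaling. Per kb, Lyl1 was the more abundant of the pair, at 91.6 against 13.1 CPM per kb for Tal1 in GFP+ ECs.

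Promoters of Tal1, Lyl1 and Cbfa2t3 are printed to show which E-box, GATA and ETS letters lie at their starts. They come from RefSeq (GRCm38.p6), which holds 13 promoters of 7 of the genes searched (Tcf4 was not searched), and each is a window of 300 bases around an annotated start. Capitals mark matches on either strand to GATAA (the GATA motif), CANNTG (E-box) and GGAAG (ETS), which are present in 25.4%, 72.3% and 71.4% of 32851 promoters of the same length. No 2 matches overlap in the windows printed, and a match describes letters only. For Tal1 the windows are chr4:115056176-115056475 and chr4:115057561-115057860 (plus strand), and for Lyl1 chr8:84701207-84701506 (plus strand). For Cbfa2t3, described further on, they are chr8:122699060-122699359 and chr8:122678126-122678425 (minus strand).
Tal1 start 1: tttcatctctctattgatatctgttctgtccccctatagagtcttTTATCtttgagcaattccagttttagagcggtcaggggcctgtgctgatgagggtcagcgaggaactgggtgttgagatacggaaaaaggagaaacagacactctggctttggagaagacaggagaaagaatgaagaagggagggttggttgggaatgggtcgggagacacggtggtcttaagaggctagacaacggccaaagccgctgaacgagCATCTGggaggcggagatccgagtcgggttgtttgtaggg
Tal1 start 2: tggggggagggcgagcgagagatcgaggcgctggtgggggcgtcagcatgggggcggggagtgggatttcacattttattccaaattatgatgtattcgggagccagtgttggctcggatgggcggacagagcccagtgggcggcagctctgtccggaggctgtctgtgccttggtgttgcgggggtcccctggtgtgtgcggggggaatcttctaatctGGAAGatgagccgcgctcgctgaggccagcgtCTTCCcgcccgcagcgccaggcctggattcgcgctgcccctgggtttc
Lyl1 start: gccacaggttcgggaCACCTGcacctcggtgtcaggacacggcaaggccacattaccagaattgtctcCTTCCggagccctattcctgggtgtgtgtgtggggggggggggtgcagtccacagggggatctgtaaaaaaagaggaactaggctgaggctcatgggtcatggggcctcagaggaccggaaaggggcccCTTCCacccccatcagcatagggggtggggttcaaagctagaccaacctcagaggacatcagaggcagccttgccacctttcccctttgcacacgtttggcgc
Cbfa2t3 start 1: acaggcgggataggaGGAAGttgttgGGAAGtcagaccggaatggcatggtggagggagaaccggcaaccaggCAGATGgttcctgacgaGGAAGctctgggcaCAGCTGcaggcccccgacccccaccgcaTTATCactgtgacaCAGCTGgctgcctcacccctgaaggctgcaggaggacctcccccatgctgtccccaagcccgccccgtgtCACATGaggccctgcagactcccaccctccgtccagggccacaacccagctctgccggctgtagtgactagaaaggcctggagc
Cbfa2t3 start 2: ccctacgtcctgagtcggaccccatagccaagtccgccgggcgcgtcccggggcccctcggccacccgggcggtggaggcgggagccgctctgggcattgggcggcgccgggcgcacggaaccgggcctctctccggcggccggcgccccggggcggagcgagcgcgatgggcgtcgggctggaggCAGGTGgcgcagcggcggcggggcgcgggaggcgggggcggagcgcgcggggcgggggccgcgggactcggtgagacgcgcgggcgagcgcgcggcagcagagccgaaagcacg

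The Tal1 windows held 1 GATA and 1 E-box match at the first start and 2 ETS matches at the second. The Lyl1 window held 1 E-box and 2 ETS matches. The first Cbfa2t3 window held matches to all the motifs (1 GATA, 4 E-box and 3 ETS), and the second held 1 E-box match.

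Lmo2 (ENSMUSG00000032698, chr2:103957986-103981878, plus strand) is the LIM-only adaptor that joins the bHLH pair to the GATA factor through Ldb1. It ranged from 175.7 to 361.7 CPM in GFP+ ECs (mean 272.9) and from 98.4 to 282.2 CPM in GFP- ECs (mean 151.8). GFP+ pools were the higher ones, with 9 of 19 above every GFP- pool. The log2 fold change was 0.81 (SE 0.11, edgeR adjusted p = 9.85e-08, 19 of 19 GFP+ pools above the GFP- median). With ERCC scaling it was 0.15 and not called (edgeR adjusted p = 0.493, range 9.72e-13 to 0.493 over 12 alternatives), and relative to all genes it was 0.71 with TMM and 0.75 with ERCC scaling.

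Ldb1 (ENSMUSG00000025223, chr19:46031570-46045214, minus strand) is the widely expressed adaptor that holds the complex together and can link distant enhancers to promoters. Its GFP+ EC pools ranged from 58.6 to 194.5 CPM (median 99.3) and its GFP- EC pools from 33.7 to 97.7 CPM (median 61.3). The ranges overlapped, and 10 of 19 GFP+ pools exceeded every GFP- pool. Ldb1 was higher by 0.69 on the log2 scale (SE 0.14, edgeR adjusted p = 7.81e-05, 17 of 19 GFP+ pools above the GFP- median). As for Lmo2, the ERCC-scaled value was 0.15 (edgeR adjusted p = 0.56, range 3.45e-07 to 0.56 over 12 alternatives), or 0.75 relative to all genes, against 0.59 with TMM. Of the exon bases of Ldb1, 3.84% are shared with Pprc1 on the opposite strand, and the counts cannot tell such reads apart.

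The E proteins moved in opposite directions. Tcf3 (ENSMUSG00000020167, chr10:80409514-80433647, minus strand), which encodes E12 and E47, ranged from 72.96 to 131.1 CPM in GFP+ ECs (median 107.2) and from 50.3 to 110.2 CPM in GFP- ECs (median 71.7). Tcf3 was higher by 0.44 (SE 0.0933, edgeR adjusted p = 0.00014, 19 of 19 GFP+ pools above the GFP- median), but with ERCC scaling the sign turned to -0.23 (edgeR adjusted p = 0.31, range 8.7e-06 to 0.31 over 12 alternatives), or 0.37 relative to all genes. Tcf4 (ENSMUSG00000053477, chr18:69343356-69689079, plus strand), the E protein also known as E2-2, is another partner for class II bHLH factors. It ranged from 98.2 to 548.7 CPM in GFP+ ECs (median 199.9) and from 187.2 to 467.1 CPM in GFP- ECs (median 343.7). Its pools overlapped, with 6 of 19 GFP+ pools below every GFP- pool and 1 above them all. The log2 fold change of Tcf4 was -0.67 (SE 0.14, edgeR adjusted p = 0.000107, 2 of 19 GFP+ pools above the GFP- median), and relative to all genes it was -0.77 with TMM and -0.56 with ERCC scaling.

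Of the ETS factors Erg alone was called between GFP+ and GFP- ECs. Fli1 (ENSMUSG00000016087, chr9:32422204-32542861, minus strand), an early regulator of endothelium and megakaryocytes, ranged from 146.5 to 230.7 CPM in GFP+ ECs (median 182) and from 105.1 to 268.6 CPM in GFP- ECs (median 195.8), the GFP+ range lying inside the GFP- range. Its log2 fold change of -0.09 was not called (SE 0.0898, edgeR adjusted p = 0.414, 6 of 19 GFP+ pools above the GFP- median). With ERCC scaling it was -0.75 and called (edgeR adjusted p = 6.02e-05, range 6.02e-05 to 0.922 over 12 alternatives), or -0.16 relative to all genes.

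Erg (ENSMUSG00000040732, chr16:95359169-95586593, minus strand), which keeps endothelial identity and stem cell function, ranged from 48.2 to 103.4 CPM in GFP+ ECs (median 70.3) and from 37.1 to 78.5 CPM in GFP- ECs (median 56.2). Most GFP+ pools were within the GFP- range, and 7 of 19 were above it. Erg was higher by 0.36 (SE 0.11, edgeR adjusted p = 0.00467, 15 of 19 GFP+ pools above the GFP- median), with ERCC scaling -0.28, and relative to all genes 0.26 and 0.31. That call was lost in 7 of 12 alternatives, among them ERCC scaling, scran's size factors, scanpy and the test without 1 GFP+ EC pool of high mesenchymal sum (0.32, edgeR adjusted p = 0.0128), and adjusted p ranged from 0.00137 to 0.55. Etv6 (ENSMUSG00000030199, chr6:134035700-134270158, plus strand), an ETS repressor needed to maintain blood stem cells, ranged from 17.4 to 99.5 CPM in GFP+ ECs (median 58.03) and from 29.5 to 81.5 CPM in GFP- ECs (median 54.8). Its change of 0.18 was not called (SE 0.15, edgeR adjusted p = 0.317, 11 of 19 GFP+ pools above the GFP- median). With ERCC scaling it was -0.47, above the median of all genes under that scaling (-0.60).

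Cbfa2t3 (ENSMUSG00000006362, chr8:122625141-122699109, minus strand), the corepressor also called Eto2, separated the endothelial populations. GFP+ EC pools held 58.1 CPM or more (median 99.1) and GFP- EC pools 8.89 to 52.6 CPM (median 23.9). Every GFP+ pool lay above every GFP- pool. The log2 fold change was 2.04 (SE 0.14, edgeR adjusted p = 8.35e-16, 19 of 19 GFP+ pools above the GFP- median), and relative to all genes it was 1.94 with TMM and 2.07 with ERCC scaling. Of its exon bases 3.52% are shared with Gm10612 on the opposite strand, and the promoter windows printed above belong to its annotated starts.

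**Figure D2:**
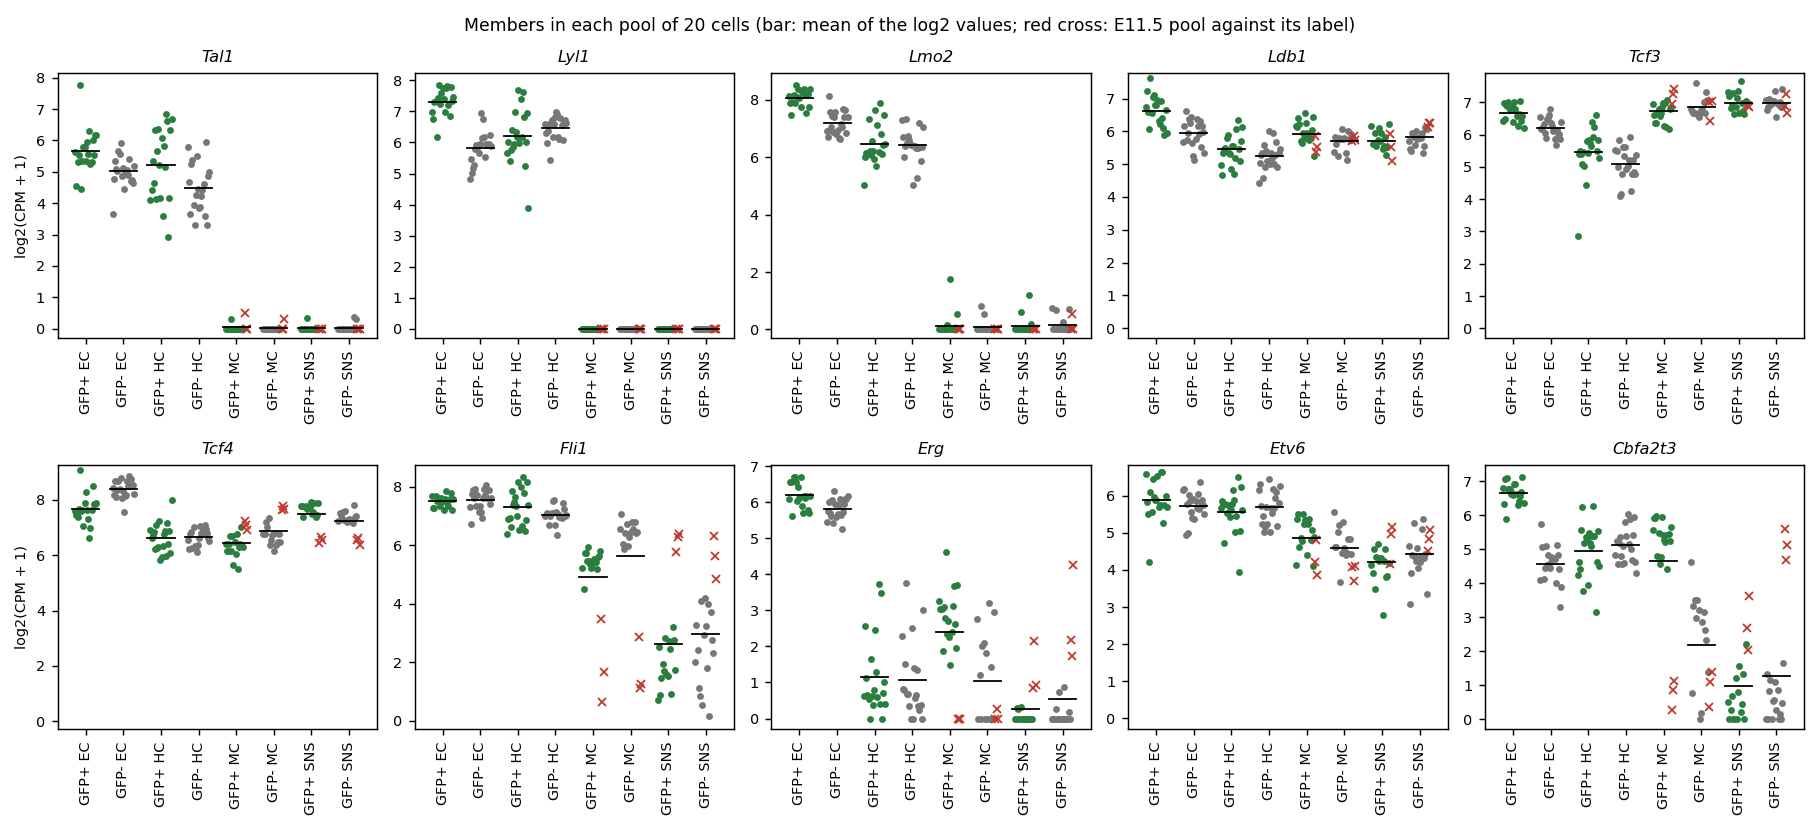
Level of each of the 10 genes (y axis, log2(CPM + 1)) in each pool of the 8 sorted populations (x axis), with a bar at the mean of the log2 values and a red cross for E11.5 pools against their label. Tal1, Lyl1 and Lmo2 sit at or near 0 in MC and SNS pools, and Cbfa2t3 separates GFP+ ECs (58.1 CPM or more) from GFP- ECs (8.89 to 52.6 CPM).

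Markers of other cells also differed between the EC populations. The mesenchymal sum had a median of 94.3 CPM in GFP+ ECs (Col3a1 the most abundant, Lum at 0) and of 15.6 CPM in GFP- ECs (Pdgfrb, Twist1 and Lum at 0), with all 7 of 7 tested genes higher and 1 GFP+ pool at 1578 CPM. The haematopoietic sum was 260.5 against 86.4 CPM (Laptm5 the most abundant, Spn at 0 in GFP- ECs), with 3 of 7 tested genes higher. Of 8 endothelial markers 7 were higher and 1 was lower, of 4 erythroid markers tested 2 were higher, and of 6 megakaryocyte markers 1 was higher. The median erythroid sums were 21.1 and 9.70 CPM (Hbb-y the most abundant, Klf1 at 0) and the megakaryocyte sums 57.6 and 73.2 CPM (Pf4). The macrophage sums were 39.3 and 50.1 CPM (C1qb), and edgeR called 0 of 8 macrophage markers (0 at an unadjusted p under 0.05, 0 by DESeq2 and 0 by scanpy). The part of these cells in the differences of the complex was not tested.

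The same question was asked of blood cells. All 10 genes passed the filter in GFP+ against GFP- HCs, and edgeR called 0 of them, whereas 26.6% of the 16200 genes tested were called. DESeq2's Wald test called 1 of the 10 (4630 of all genes tested) and scanpy 0 (4467 of all genes tested). At an unadjusted edgeR p under 0.05 there were 3 of the 10. The share of all genes at that unadjusted limit is not given for any comparison here, so such counts have no background beside them. In none of the 10 did GFP+ and GFP- HC pools fail to overlap, as in 0.0802% of genes tested. The median log2 fold change was 0.14 for the 10 genes and 0.05 for all genes.

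Tal1 ranged from 6.59 to 112.6 CPM in GFP+ HCs (median 38.1) and from 8.89 to 60.95 CPM in GFP- HCs (median 20.6). GFP+ pools were spread widely, with 7 of 20 above and 1 below the whole GFP- range. The log2 fold change was 0.94 (SE 0.30, edgeR adjusted p = 0.0131, 13 of 20 GFP+ pools above the GFP- median). It was called with DESeq2's size factors (0.99, edgeR adjusted p = 0.00944), DESeq2's Wald test (0.99, DESeq2 adjusted p = 0.00314) and a fit of all populations (0.93, edgeR adjusted p = 0.000544), in a range of 0.000544 to 0.072 over 12 alternatives. Lyl1 ranged from 13.8 to 203.9 CPM in GFP+ HCs (median 67.5) and from 42.03 to 125.7 CPM in GFP- HCs (median 94.9), and its change was -0.05 (SE 0.20, edgeR adjusted p = 0.865, 6 of 20 GFP+ pools above the GFP- median).

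Of the adaptors, Lmo2 ranged from 32.1 to 235.3 CPM in GFP+ HCs (median 73.3) and from 31.8 to 161.8 CPM in GFP- HCs (median 84.1), with a change of 0.12 (SE 0.20, edgeR adjusted p = 0.686, 9 of 20 GFP+ pools above the GFP- median). Ldb1 ranged from 24.6 to 80.8 CPM (median 43.1) and from 20.4 to 63.9 CPM (median 37.7), with a change of 0.24 (SE 0.14, edgeR adjusted p = 0.192, 14 of 20 above). The E proteins were not called either. Tcf3 ranged from 6.32 to 96.5 CPM in GFP+ HCs (median 44.4) and from 16.2 to 59.7 CPM in GFP- HCs (median 33.6), with a change of 0.47 (SE 0.19, edgeR adjusted p = 0.0492, 16 of 20 above) that the fit of all populations called (edgeR adjusted p = 0.00175, range 0.00175 to 0.205 over 12 alternatives). Tcf4 had medians of 101.3 and 103.6 CPM in GFP+ and GFP- HCs, with a change of 0.04 that turned to -0.05 with ERCC scaling, -0.06 with scanpy and -0.10 without the pool of high sympathetic sum.

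Among the ETS factors, Fli1 ranged from 83.2 to 327 CPM in GFP+ HCs (median 163.4) and from 80.1 to 186.5 CPM in GFP- HCs (median 130.5). The GFP+ pools reached higher, with 7 of 20 above the GFP- range, but the change of 0.35 was not called (SE 0.15, edgeR adjusted p = 0.0637, 11 of 20 above the GFP- median). Erg was near the floor in HCs, with medians of 0.598 and 0.597 CPM, and reached 10 counts in 4 of 20 GFP+ and 5 of 20 GFP- pools. Etv6 had medians of 51.1 and 50.7 CPM and Cbfa2t3 of 35.2 and 33.9 CPM in GFP+ and GFP- HCs, with changes of -0.10 and -0.06.

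The HC populations differed in their other markers. All 7 megakaryocyte markers were higher in GFP+ HCs, whose summed level ranged from 1668 to 61829 CPM (median 10159), against 140.8 to 4014 CPM (median 599.6) in GFP- HCs, with Pf4 the most abundant gene in both. The macrophage sum ranged from 67.1 to 10446 CPM in GFP+ HCs (median 4274) and from 3531 to 7506 CPM in GFP- HCs (median 5566), with C1qb the most abundant and 2 of 8 genes lower. Of 8 haematopoietic markers 6 were lower and 1 was higher in GFP+ HCs (medians 2344 and 3795 CPM, Coro1a). Of 8 endothelial markers 6 were higher (medians 221.1 and 107.9 CPM, Esam and Egfl7), and of 8 mesenchymal markers 7 were higher (354.1 and 42.4 CPM, Col3a1). All 9 sympathetic markers were higher (4.28 to 1293 CPM, median 57.8, against 0.297 to 9.84 CPM, median 4.86, Dbh the most abundant and Phox2a at a median of 0), and of 8 erythroid markers 1 was higher and 1 lower (99.8 and 30.2 CPM, Epor and Hbb-bh1). Their part in the values of the 10 genes was not tested.

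Whether the GFP difference itself differed between ECs and HCs was tested in a joint fit of the E10.5 pools. Of the 10 genes, 3 were called (22.7% of 17851 genes tested were), each with a larger change in ECs. The EC change exceeded the HC change by 2.11 for Cbfa2t3 (SE 0.25, edgeR adjusted p = 1.39e-10, GFP+ pools above the GFP- median in 19 of 19 for ECs and 11 of 20 for HCs). For Lyl1 the difference was 1.504 (SE 0.26, edgeR adjusted p = 1.97e-06, 19 of 19 and 6 of 20), and for Tcf4 it was -0.71 (SE 0.20, edgeR adjusted p = 0.00334, 2 of 19 and 10 of 20). Lmo2 at 0.70 (SE 0.23, edgeR adjusted p = 0.014, 19 of 19 and 9 of 20) missed the threshold, and was called with DESeq2's size factors (0.75, edgeR adjusted p = 0.00869) and without the gene filter (0.80, edgeR adjusted p = 0.00636, range 0.00636 to 0.94 over 8 alternatives). The median was 0.24 for the 10 genes and -0.11 for all genes.

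ERCC scaling moved the median of all genes in this test from -0.11 to -0.75 and the positive share of all calls from 37.8% to 9.01%. The Lyl1 call was then lost (0.71, edgeR adjusted p = 0.0642, range 4.61e-07 to 0.0642 over 8 alternatives), although relative to all genes it was 1.46. Fli1 was called at -1.05, beside the median of -0.75 (edgeR adjusted p = 0.000517, range 0.000517 to 0.178). With TMM it was -0.44, beside the median of -0.11 (edgeR adjusted p = 0.0469). Tcf4 missed the threshold with DESeq2's size factors (-0.65, edgeR adjusted p = 0.01) and without the gene filter (-0.62, edgeR adjusted p = 0.0156, range 0.00109 to 0.0156 over 8 alternatives).

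**Figure D3:**
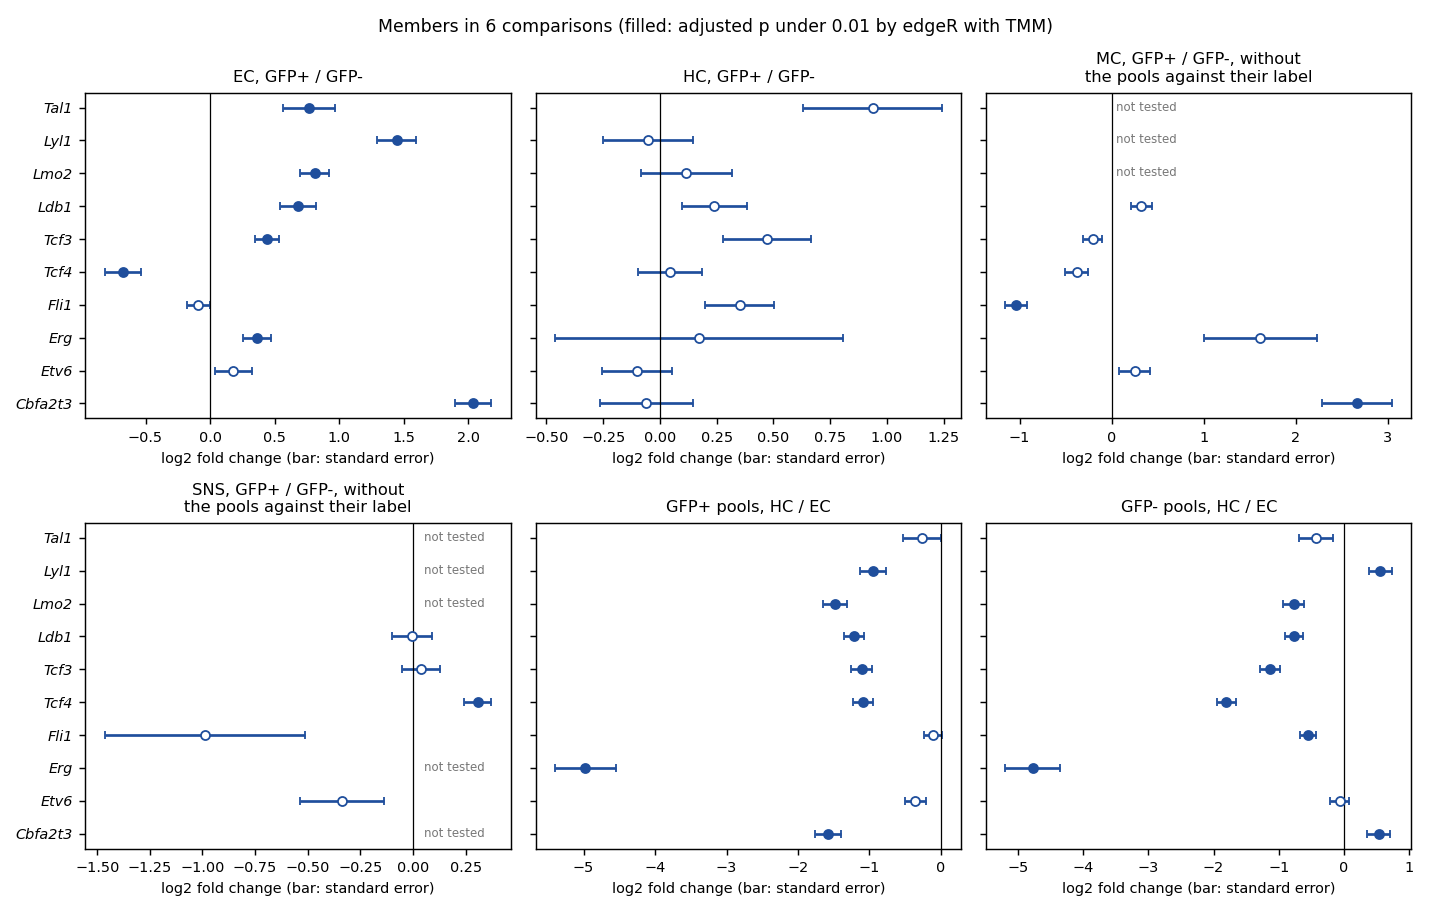
Log2 fold change (x axis, point and SE bar) of each of the 10 genes (y axis) in 6 comparisons. Filled points mark genes called, and MC and SNS are shown without the pools against their label. In ECs the points run from -0.67 (Tcf4) to 2.04 (Cbfa2t3) and in HCs none is filled. ERCC scaling, which moves the median of all genes, turns the signs of Tcf3, Erg and Etv6 in ECs and of Tcf4 in HCs. In HCs against ECs it turns those of Tal1, Fli1 and Etv6 in GFP+ pools and of Etv6 in GFP- pools. With all passing pools it turns those of Ldb1, Fli1 and Etv6 in SNS cells.

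HCs were then compared with ECs within the GFP+ and within the GFP- pools. Erg, Lmo2, Ldb1, Tcf3 and Tcf4 were lower in HCs in both, and Tal1 and Etv6 were called in neither. Lyl1 and Cbfa2t3 were lower in GFP+ but higher in GFP- pools, and Fli1 was called, lower, in GFP- pools alone. In GFP+ pools 0 of the 10 genes were higher in HCs by edgeR (24.7% of genes tested were) and 7 were lower (18.6%). Of the 10, 8 had an unadjusted edgeR p under 0.05, all lower, without a share of all genes to set beside this count. With ERCC scaling 1 of the 10 was higher, Fli1, beside 46.4% of genes tested. In GFP- pools 2 were higher (18.2%) and 6 lower (20.1%). The medians were -1.10 for the 10 genes and 0.09 for all genes in GFP+ pools, and -0.66 and -0.01 in GFP- pools. With ERCC scaling the median of all genes in GFP+ pools rose to 0.81 and the higher share of all calls from 57.1% to 85.6%.

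Among the bHLH genes, Tal1 had changes of -0.26 in GFP+ pools (SE 0.26, edgeR adjusted p = 0.414, 11 of 20 HC pools below the EC median) and of -0.43 in GFP- pools (SE 0.26, edgeR adjusted p = 0.176, 15 of 20 below). With ERCC scaling the GFP+ value of Tal1 was 0.09, below the median of all genes under that scaling (0.81). Lyl1 was lower in GFP+ HCs by -0.95 (SE 0.18, edgeR adjusted p = 7.5e-06, 17 of 20 below the EC median) but higher in GFP- HCs by 0.56 (SE 0.18, edgeR adjusted p = 0.00767, 19 of 20 above). Both calls were lost with ERCC scaling, where the GFP+ value was -0.09 (edgeR adjusted p = 0.738, range 3.07e-06 to 0.738 over 8 alternatives), or -0.90 relative to all genes. For GFP- pools adjusted p ranged from 0.00366 to 0.0216.

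The adaptors and E proteins were lower in HCs of both kinds. For Lmo2 the changes were -1.48 in GFP+ pools (SE 0.17, edgeR adjusted p = 3.48e-12, 20 of 20 HC pools below the EC median) and -0.77 in GFP- pools (SE 0.16, edgeR adjusted p = 4.48e-05, 17 of 20 below). For Ldb1 they were -1.22 (SE 0.14, edgeR adjusted p = 8.49e-12, 20 of 20) and -0.76 (SE 0.14, edgeR adjusted p = 2.81e-06, 18 of 20). Tcf3 fell alike in both, by changes of -1.11 (SE 0.15, edgeR adjusted p = 1.66e-09, 20 of 20) and -1.14 (SE 0.15, edgeR adjusted p = 6.32e-10, 20 of 20). Its GFP+ call was lost with ERCC scaling (-0.45, edgeR adjusted p = 0.0561, range 5.77e-10 to 0.0561 over 8 alternatives), where the median of all genes was 0.81, against 0.09 with TMM. Tcf4 had changes of -1.09 (SE 0.14, edgeR adjusted p = 4.95e-10, 19 of 20) and -1.81 (SE 0.14, edgeR adjusted p = 4.83e-19, 20 of 20).

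Of the ETS factors, Erg showed the largest difference between the cell types. Its HC pools reached at most 12.2 (GFP+) and 12.6 CPM (GFP-), below the lowest EC pools at 48.2 and 37.1 CPM. Tcf4 likewise did not overlap between HCs and ECs in GFP- pools. The share of all genes without such overlap is not given here, so the separation is not read as particular to these genes. The fitted changes of Erg were -4.98 (SE 0.42, edgeR adjusted p = 1.52e-17, 20 of 20 HC pools below the EC median) and -4.77 (SE 0.42, edgeR adjusted p = 3.88e-17, 20 of 20). Fli1 was the contrast to this: its lowest HC pool held 80.1 CPM, with changes of -0.11 in GFP+ pools (SE 0.13, edgeR adjusted p = 0.47, 13 of 20 below; 0.60 with ERCC scaling, or -0.20 relative to all genes) and -0.55 in GFP- pools (SE 0.13, edgeR adjusted p = 0.000119, 20 of 20 below). That GFP- call was lost with ERCC scaling (-0.44, edgeR adjusted p = 0.0391, range 0.000119 to 0.0391 over 8 alternatives). Etv6 had changes of -0.36 in GFP+ pools, 0.33 with ERCC scaling, and of -0.07 in GFP- pools, 0.02 with ERCC scaling. Both ERCC-scaled values lay below the medians of all genes under that scaling (0.81 and 0.06). Cbfa2t3 was lower in GFP+ HCs by -1.58 (SE 0.18, edgeR adjusted p = 3.93e-12, 20 of 20 below the EC median) and higher in GFP- HCs by 0.53 (SE 0.18, edgeR adjusted p = 0.00998, 15 of 20 above), a value at the threshold that 3 of 8 alternatives lost (range 0.00675 to 0.0125).

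In mesenchyme and sympathetic cells the blood-forming core was at or near 0. Lyl1 had 0 counts in all 74 E11.5 pools. Tal1 had 0 counts in 18 of 20 GFP+ MC, 16 of 17 GFP- MC, 17 of 18 GFP+ SNS and 17 of 19 GFP- SNS pools, with at most 2 counts. Lmo2 had 0 counts in 17 of 20, 15 of 17, 15 of 18 and 14 of 19 of these pools, with at most 8 counts. None of these genes passed the filter, nor did Erg in SNS cells, so 7 of 10 genes were tested in MCs and 6 of 10 in SNS cells. In SNS cells Cbfa2t3 was not tested either once the pools against their label were left out.

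Between GFP+ and GFP- MCs, Cbfa2t3 was higher in GFP+ cells and Fli1 was lower once the pools against their label were left out. With all passing pools edgeR called 1 of 7 genes (4.36% of 16026 genes tested), and without them 2 of 7 (10.4% of 15226), an alternative chosen after seeing the data. The medians were 0.25 for the 7 genes and -0.01 for all genes, and 0.25 and 0.01 without those pools. Of all calls with all passing pools, 50.7% were higher, and 72.4% with ERCC scaling.

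Cbfa2t3 ranged from 0.214 to 61.5 CPM in GFP+ MCs (median 39.4) and from 0 to 23.6 CPM in GFP- MCs (median 5.10). Without the pools against their label the GFP+ pools ranged from 20.2 to 61.5 CPM, and 15 of 17 lay above every GFP- pool. The change was 2.66 (SE 0.53, edgeR adjusted p = 0.000917, 17 of 20 GFP+ pools above the GFP- median) with all passing pools and 2.67 without (SE 0.38, edgeR adjusted p = 3.37e-06, 17 of 17; range 2.8e-06 to 0.0031 over 12 alternatives). Fli1, known from some mesenchyme as well as endothelium, ranged from 0.543 to 60.5 CPM in GFP+ MCs (median 42.1) and from 1.14 to 132.8 CPM in GFP- MCs (median 84.4). Without those pools the ranges were 21.95 to 60.5 and 58.3 to 132.8 CPM, with 16 of 17 GFP+ pools below every GFP- pool. The change of Fli1 was -0.98 (SE 0.40, edgeR adjusted p = 0.116, 0 of 20 GFP+ pools above the GFP- median) with all passing pools and -1.04 without (SE 0.12, edgeR adjusted p = 3.61e-08, 0 of 17 above; range 3.61e-08 to 0.468 over 12 alternatives).

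The other tested genes were not called in MCs. Erg was low, with medians of 5.33 CPM in GFP+ and 0.191 CPM in GFP- MCs, and a change of 1.65 (SE 0.73, edgeR adjusted p = 0.159, 17 of 20 above the GFP- median; 1.62 and edgeR adjusted p = 0.0651 without those pools, range 0.0257 to 0.182 over 12 alternatives). Tcf4 had medians of 83.3 and 108.7 CPM and a change of -0.47 (SE 0.15, edgeR adjusted p = 0.0423, 4 of 20 above; -0.38 without those pools, SE 0.13, edgeR adjusted p = 0.0358, 2 of 17 above), Tcf3 medians of 109.6 and 107.3 CPM, Ldb1 of 58.9 and 53.3 CPM and Etv6 of 28.4 and 23.2 CPM. Without those pools the changes were -0.20 for Tcf3 (edgeR adjusted p = 0.194), 0.32 for Ldb1 (edgeR adjusted p = 0.0493) and 0.25 for Etv6 (edgeR adjusted p = 0.345). The mesenchymal sum itself differed between MCs without the pools against their label. It ranged from 3834 to 5590 CPM in GFP+ pools (median 4821) and from 2689 to 4098 CPM in GFP- pools (median 3116). Endothelial markers were low in MCs (median sums of 51.3 and 41.6 CPM in GFP+ and GFP- pools), with Cdh5, Pecam1 and Tie1 at a median of 0. The haematopoietic sums were 2.69 and 6.004 CPM with Ptprc, Spn, Vav1, Spi1 and Cd53 at a median of 0, and all 8 macrophage markers were at a median of 0. The megakaryocyte sums were 23.4 and 6.86 CPM (Itgb3 the most abundant, Pf4 and Gp9 at a median of 0) and the erythroid sums 11.52 and 4.84 CPM (Epor, with Klf1 at a median of 0). The part of these cells in the levels of the 10 genes was not tested.

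In SNS cells edgeR called 0 of 6 genes with all passing pools (3.87% of 16143 genes tested were called), and DESeq2 and scanpy called 0. Of the 6, 2 had an unadjusted edgeR p under 0.05, without a share of all genes to set beside this count. Without the pools against their label edgeR called 1 of 5 (10.4% of 15658). The medians were -0.04 for the 6 genes and -0.00 for all genes with all passing pools. That gene was Tcf4, which ranged from 164.9 to 240.7 CPM in GFP+ SNS (median 212.3) and up to 225.5 CPM in GFP- SNS (median 158.2) without those pools. Every GFP+ pool lay above the GFP- median, and 3 of 15 exceeded the highest GFP- pool. Its change was 0.31 (SE 0.0663, edgeR adjusted p = 0.000989, 15 of 15 GFP+ pools above the GFP- median), and with all passing pools it was 0.28 (SE 0.12, edgeR adjusted p = 0.165, 15 of 18 above; range 0.000989 to 0.278 over 12 alternatives). Other markers also differed between these pools. Without those against their label the mesenchymal sum ranged from 111.6 to 338.4 CPM in GFP+ SNS and from 380 to 901.4 CPM in GFP- SNS, with 7 of 8 genes lower in GFP+ SNS. The haematopoietic sums had medians of 41.9 and 13.8 CPM (Laptm5 the most abundant, Ptprc and Spi1 at a median of 0), with 1 of 2 tested genes higher. Their part in the Tcf4 values was not tested.

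ERCC scaling moved the median of all genes in SNS cells from -0.00 to 0.35 and the higher share of all calls from 52% to 83.3%, and the fit of all populations gave 40.3%. Relative to the ERCC median, Tcf4 stood at 0.33, against 0.29 with TMM. Fli1 reached 83.8 CPM in GFP+ and 78.97 CPM in GFP- SNS pools with them and 8.16 and 17.3 CPM without, and its change was 0.08 with and -0.99 without them (-0.08 with ERCC scaling and -0.33 with scanpy). Cbfa2t3 reached 46.9 CPM with them and at most 3.67 CPM without, where it was not tested.

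The GFP difference was also compared between MCs and SNS cells in a joint fit of the E11.5 pools. Of 7 genes tested 2 were called with all passing pools (9.66% of 17733 genes tested) and 1 without the pools against their label (10.4% of 17309). Tcf4 had a difference of -0.74 (SE 0.20, edgeR adjusted p = 0.00551, GFP+ pools above the GFP- median in 4 of 20 for MCs and 15 of 18 for SNS) and of -0.70 without those pools (SE 0.14, edgeR adjusted p = 0.000233, 2 of 17 and 15 of 15; range 0.000233 to 0.0115 over 7 alternatives). It was -1.27 with ERCC scaling, and with all 160 pools, those that failed included, it missed the threshold (-0.65, edgeR adjusted p = 0.0115). Cbfa2t3 had a difference of 4.49 (SE 1.03, edgeR adjusted p = 0.00089, 17 of 20 and 9 of 18), which was 2.17 without those pools and not called (SE 0.75, edgeR adjusted p = 0.0361, 17 of 17 and 7 of 15; range 0.000455 to 0.0361). In SNS pools as labelled, Cbfa2t3 had means of 0.729 (GFP+) and 0.572 CPM (GFP-) and was not tested alone. It passed the filter of the joint fit through MCs and pools against their label, so its difference does not measure a GFP change in SNS cells. The medians were 0.38 for the 7 genes and 0.01 for all genes. ERCC scaling moved the median of all genes to -0.37 and the positive share of all calls from 46.5% to 23.7%.

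The order of mean levels over the 8 populations is given from high to low with all passing pools, and neighbours are said to differ where their means lie farther apart than the larger SD. The bHLH factor Tal1 ran GFP+ EC, GFP+ HC, GFP- EC and GFP- HC, with no neighbours differing until the drop to the E11.5 populations. Lyl1 ran GFP+ EC (164.8 CPM), then GFP- HC, GFP+ HC and GFP- EC (90.1, 86.9 and 59.1 CPM), which did not differ from their neighbours. Lmo2 ran GFP+ EC (272.9 CPM), then GFP- EC, GFP+ HC and GFP- HC (151.8, 99.3 and 91.8 CPM), again with the only gaps after GFP+ ECs and before E11.5. These gaps were the same without the pools against their label.

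The adaptor Ldb1 and the E proteins were present in all populations. Ldb1 was highest in GFP+ ECs (103.2 CPM) and the other means, from 62.7 CPM in GFP- ECs to 38.2 CPM in GFP- HCs, did not differ from neighbour to neighbour. Tcf3 was highest in GFP+ SNS (128.6 CPM), followed by GFP- SNS, GFP- MC, GFP+ MC and GFP+ EC without a gap, then GFP- EC (74.5 CPM), then both HC populations (48.2 and 35.2 CPM). Tcf4 was highest in GFP- ECs (344.8 CPM), followed without further gaps by GFP+ EC, GFP+ SNS, GFP- SNS, GFP- MC, GFP+ HC, GFP- HC and GFP+ MC (89.6 CPM). Without the pools against their label Tcf4 had 2 further gaps, between GFP+ SNS (205.9 CPM) and GFP- SNS (165.9 CPM) and between GFP- SNS and GFP- MC (105.8 CPM). Without them Ldb1 kept its only gap, with GFP+ MC second at 64.1 CPM, and the gaps of Tcf3 again came before GFP- EC and before the HCs.

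Among the ETS factors, Fli1 was high and without gaps in GFP- EC, GFP+ EC, GFP+ HC and GFP- HC (190.3 to 134.2 CPM), and lower in MC (74.1 and 37.7 CPM) and SNS (14.7 CPM in the higher). Without the pools against their label each step of Fli1 after GFP- HC was a gap, to GFP- MC (89.3 CPM), to GFP+ MC (43.65 CPM) and to SNS (6.63 CPM in GFP- and 3.35 CPM in GFP+ pools). Erg was high in both EC populations (74.4 and 56.5 CPM) and at most 6.06 CPM elsewhere. Etv6 ran from 62.6 CPM in GFP+ ECs to 49.7 CPM in GFP+ HCs without a gap, with a drop before GFP+ MC (29.98 CPM). The corepressor Cbfa2t3 was highest in GFP+ ECs (101.9 CPM), followed by GFP- HC, GFP+ MC, GFP+ HC and GFP- EC (36.1, 35.7, 34.5 and 24.2 CPM) without a gap, and was at most 6.04 CPM in the other populations. Without those pools GFP+ MC came second for Cbfa2t3 (41.85 CPM) with gaps after GFP+ EC and before GFP- MC (6.71 CPM), Erg was at most 7.13 CPM outside ECs, and Etv6 kept its drop before GFP+ MC (31.83 CPM).

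The genes most like each one in this pattern were found among 12398 genes by Pearson's r of mean log2(CPM + 1) over the 8 populations, as a description over points that share stage and handling. They were Tpt1-ps6 for Tal1 (0.99), Jak3 for Lyl1 (0.9986), Parp4 and Hhex for Lmo2 (0.9973 and 0.9956), Sox13 for Ldb1 (0.99), Cplx2 for Tcf3 (0.99), Bace2 for Tcf4 (0.96), Gm37474 for Fli1 (0.97), Depp1 for Erg (0.9979), Klhl6 for Etv6 (0.99) and Il2rg for Cbfa2t3 (0.98). For Tal1 and Lyl1 the second most alike gene was mt-Co3 (0.9938 and 0.9985), which separates the stages as described above. Without the pools against their label, 2 or 3 of the 3 most alike genes of each were the same.

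The paralogue pairs were compared within each pool as log2 ratios of CPM per kb with 0.5 added to both, which scaling by pool hardly touches. Lyl1 exceeded Tal1 in nearly every E10.5 pool, with mean log2 ratios of 2.89 in GFP+ ECs (SD 0.95, n = 19, above 0 in 18), 2.03 in GFP- ECs (SD 0.66, n = 20, above 0 in 20), 2.21 in GFP+ HCs (SD 1.12, n = 20, above 0 in 19) and 3.17 in GFP- HCs (SD 0.86, n = 20, above 0 in 20). Fli1 exceeded Erg in all pools of ECs, HCs and MCs. The mean log2 ratio of Erg over Fli1 was -1.30 in GFP+ ECs (SD 0.47) and -1.70 in GFP- ECs (SD 0.42), but -5.68 in GFP+ HCs (SD 1.08) and -5.49 in GFP- HCs (SD 1.02), where it depends on the value added (-7.14 and -7.09 with 0.05). In MCs it was -2.33 in GFP+ and -4.12 in GFP- pools, and -2.49 and -4.74 without the pools against their label. The GFP- value also depends on the value added, since with 0.05 it was -5.93, and -6.47 without those pools. Tcf3 exceeded Tcf4 per kb in most pools, with mean log2 ratios of Tcf4 over Tcf3 of -1.68 in GFP+ ECs (SD 0.53) and -0.53 in GFP- ECs (SD 0.49, above 0 in 4 of 20). The per-kb scale weighs on this pair, since the merged exons of Tcf4 span 27382 bases.

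**Figure D4:**
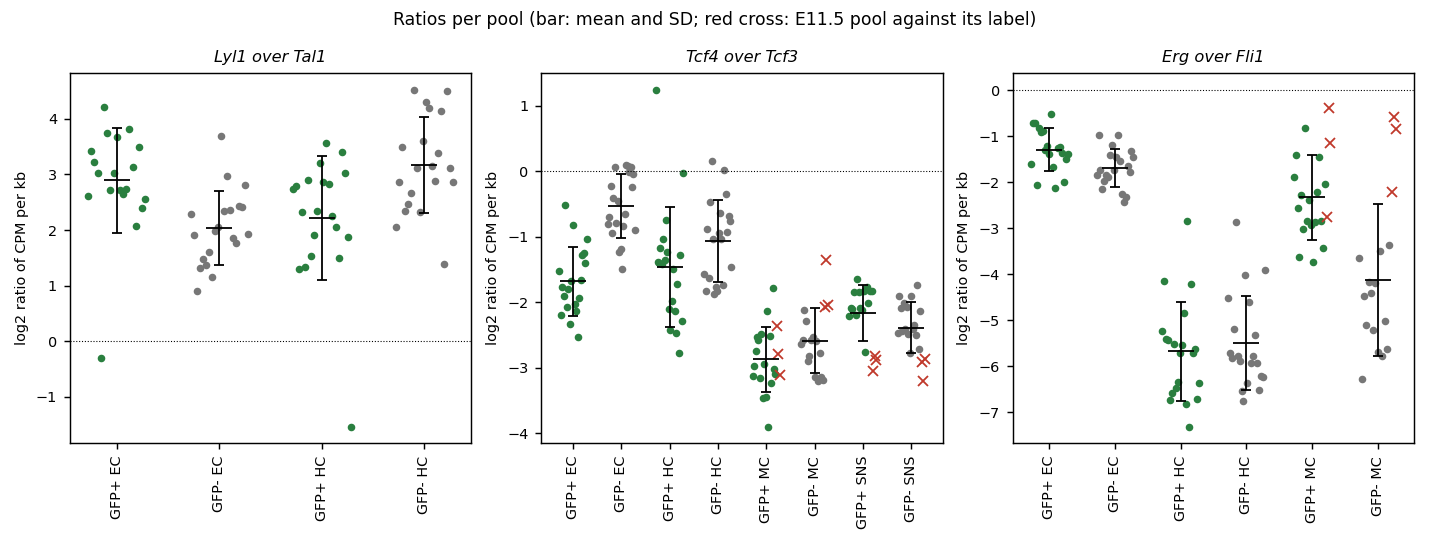
Log2 ratio of CPM per kb (y axis, 0.5 added to both) per pool for Lyl1 over Tal1, Tcf4 over Tcf3 and Erg over Fli1 by sorted population (x axis), with bars for mean and SD. The Erg over Fli1 ratio lies between -2.44 and -0.52 in EC pools and between -7.31 and -2.85 in HC pools.

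How the genes varied together was read within each population, as correlations of log2(CPM + 1) between pools with two-sided permutation tests. Of 360 possible pairs 324 could be computed, and 26 had a Benjamini-Hochberg adjusted p of r under 0.05, of which 19 were positive. Those that passed by both r and rho numbered 4, all in GFP+ HCs. There, Tal1 rose with Fli1 (n = 20, r = 0.83, permutation p = 4e-05, adjusted p = 0.0054; rho = 0.83, permutation p = 5e-05, adjusted p = 0.0081), and r was 0.79 without the 2 farthest pools. Tal1 and Lmo2 had r = 0.72 (permutation p = 0.00034, adjusted p = 0.0157) and rho = 0.79 (permutation p = 8e-05, adjusted p = 0.00864), with r = 0.74 without the 2 farthest pools. Lmo2 and Fli1 had r = 0.90 and rho = 0.85 (permutation p = 1e-05 for both, the smallest the resamples can give, adjusted p = 0.00324 for both), with r = 0.85 without them. Lyl1 and Fli1 had r = 0.65 (permutation p = 0.00131, adjusted p = 0.025) and rho = 0.75 (permutation p = 0.00022, adjusted p = 0.0178), with r = 0.85 without them.

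The median r over 45 pairs was 0.26 in GFP+ HCs and 0.05 in GFP+ ECs. By permutation tests adjusted over all pairs, 0 pairs passed in GFP+ ECs and 0 in GFP- HCs, and 3 passed by r in GFP- ECs. With 0.1 in place of 1 added to CPM, 0 passed in GFP- ECs and 19 passed by r in all. At E11.5, 16 pairs passed by r with all passing pools and 0 without the pools against their label, where 14 to 17 pools per population remained and the highest r was 0.69 (Ldb1 and Tcf4 in GFP+ SNS, n = 15, permutation p = 0.00462, adjusted p = 0.628).

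Tal1, Lmo2 and Fli1 rose with the megakaryocyte sum in GFP+ HCs, a relation chosen after the values were seen and computed among 40 correlations. In GFP+ HCs (n = 20), Tal1 rose with the megakaryocyte sum on the log2 scale (r = 0.76, permutation p = 0.0001, adjusted p = 0.00133; rho = 0.78, permutation p = 9e-05, adjusted p = 0.0012; r = 0.75 without the 2 farthest pools). Lmo2 had r = 0.86 (permutation p = 1e-05, the smallest possible, adjusted p = 0.0002) and rho = 0.85 (permutation p = 2e-05, adjusted p = 0.0004), with r = 0.86 without the 2 farthest pools. Fli1 had r = 0.86 and rho = 0.86 (permutation p = 1e-05 for both, adjusted p = 0.0002 and 0.0004), with r = 0.87 without them. Lyl1 had r = 0.54 (permutation p = 0.0123, adjusted p = 0.0614) and rho = 0.69 (permutation p = 0.00114, adjusted p = 0.0114). In GFP- HCs (n = 20) r was 0.38 for Tal1, 0.16 for Lmo2 and 0.06 for Fli1, and 0 of the 10 genes passed by the adjusted permutation tests. Against the macrophage sum in GFP+ HCs Lmo2 had r = -0.69 (permutation p = 0.00021, adjusted p = 0.0021) and rho = -0.64 (permutation p = 0.00298, adjusted p = 0.0231), with r = -0.52 without the 2 farthest pools. By r alone Fli1 (r = -0.55, adjusted permutation p = 0.0258) and Ldb1 (r = -0.56, adjusted permutation p = 0.0474) also passed 0.05. Tal1 passed by rho alone (rho = -0.63, adjusted permutation p = 0.0231). Both sums share pools and scaling with the genes.

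**Figure D5:**
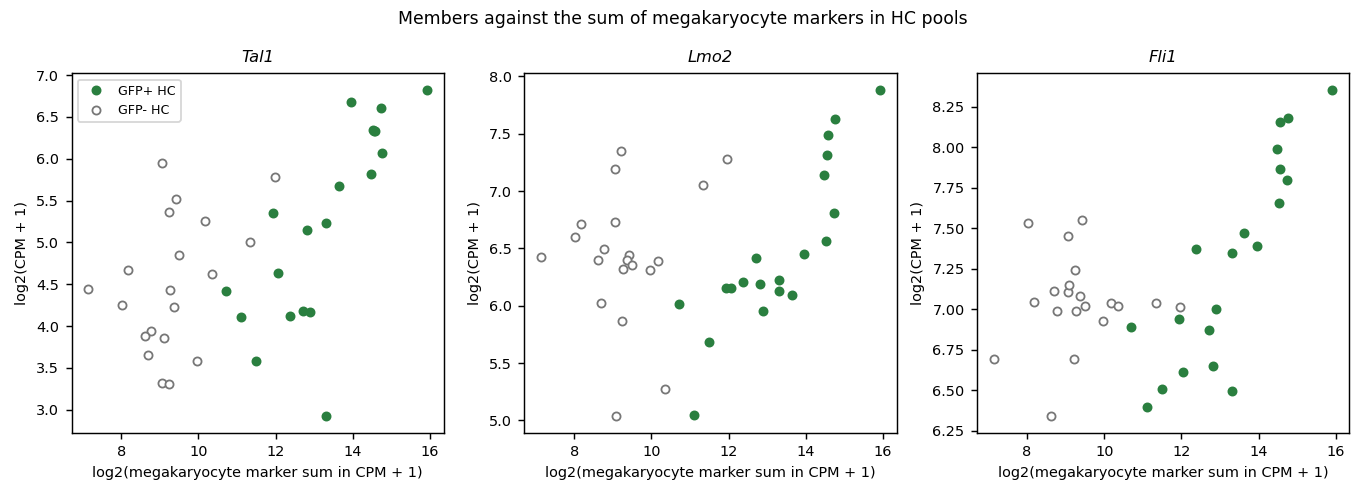
Tal1, Lmo2 and Fli1 (y axis, log2(CPM + 1)) against the megakaryocyte marker sum (x axis, log2(CPM + 1)) in GFP+ HC (filled) and GFP- HC pools (open). In GFP+ HCs the genes rise with the sum, with r of 0.76, 0.86 and 0.86.

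Partner lists place these genes among their known interactors, and all list counts are read beside those of all genes tested. In GFP+ against GFP- ECs 19.5% of all genes tested were higher and 16.5% lower, and 5 of 6 tested GATA, RUNX and PU.1 partners were higher and 0 lower by edgeR, with a median log2 fold change of 2.09 (0.10 for all genes). Gata3 is counted in this list in every cell type. Since its reporter was used to sort the cells, its change between GFP+ and GFP- pools is no independent result. The largest changes were in Runx1, the regulator of blood emergence (3.07, SE 0.56, 18.1 ± 23.1 against 2.10 ± 1.49 CPM, edgeR adjusted p = 1.25e-05, 12 of 19 GFP+ pools above the GFP- median), Gata3 itself (2.66, SE 0.22, 78.6 ± 29.95 against 12.2 ± 6.89 CPM, edgeR adjusted p = 9.61e-14, 19 of 19) and Spi1, which encodes PU.1 (2.32, SE 0.43, 18.1 ± 23.3 against 3.52 ± 1.95 CPM, edgeR adjusted p = 1.83e-05, 17 of 19). The Runx1 call was lost with scanpy. The wide SD of Runx1 marks a few GFP+ pools, since Runx1 ran from 0.446 to 69.5 CPM with a median of 4.63. The SD of Spi1 was also wide, but 17 of 19 GFP+ pools lay above the GFP- median.

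Of the Id inhibitors, which keep E proteins from binding DNA, 3 of 3 tested were higher, led by Id1 (1.39, SE 0.16, 230.9 ± 62.8 against 86.01 ± 36.4 CPM, edgeR adjusted p = 1.2e-09, 19 of 19), and with ERCC scaling Id3 and Id2 lost their calls. Of the Ldb1 adaptor complex 4 of 8 tested were higher and 0 lower (median 0.39), among them Lmo4 (0.62), Ssbp2 (0.59) and Tcf12 (0.38). With ERCC scaling these were at -0.01, -0.14 and -0.28 and not called, while all lay above the median of all genes under that scaling (-0.60). The calls of Ssbp2 and Tcf12 were also lost with scanpy, and that of Tcf12 with scran's size factors. Of the corepressors 3 of 8 were higher and 1 lower, led by Gfi1 (4.05, SE 0.90, 8.14 ± 10.46 against 0.534 ± 1.98 CPM, edgeR adjusted p = 0.000232, 15 of 19) and Runx1t1, a relative of Cbfa2t3 (2.77, SE 0.47, 17.8 ± 13.3 against 2.52 ± 2.50 CPM, edgeR adjusted p = 4.6e-06, 17 of 19). The GFP- mean of Gfi1 lay within the floor of detection of those pools (0.523 to 1.65 CPM), so the size of its change is uncertain.

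Of 16 other ETS factors tested in ECs 4 were higher and 5 lower (median 0.04), with Etv4 lower (-2.53) and Fev (2.47) and Elf1 (1.55) higher. Of 11 haematopoietic targets tested 4 were higher and 0 lower (median 0.53). Among them were Epor (2.13), Nfe2 (1.69) and Cd34 (1548 ± 263 against 645.7 ± 146.7 CPM, 1.23, edgeR adjusted p = 4.15e-15, 19 of 19). With ERCC scaling 0 of the 11 were called, beside 6.31% of all genes tested called higher and 37.7% lower, and the call of Nfe2 was also lost with scanpy. Of 19 endothelial targets 16 were higher and 2 lower (median 1.001), led by Vwf (4.67, SE 0.22, 1556 ± 376.4 against 60.2 ± 37.1 CPM, edgeR adjusted p = 2.25e-21, 19 of 19), Smad6 (3.77) and Clec14a (2.15).

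In GFP+ against GFP- HCs 17.1% of the 16200 genes tested were higher and 9.53% lower. Gata1, the erythroid and megakaryocyte GATA factor, was higher (2.75, SE 0.53, 128.2 ± 118.5 against 18.97 ± 20.5 CPM, edgeR adjusted p = 6.74e-05, 18 of 20 GFP+ pools above the GFP- median), as was Gata3 (2.89, SE 0.26, 49.97 ± 31.4 against 6.90 ± 2.98 CPM, edgeR adjusted p = 3.37e-11, 20 of 20), while the erythroid factor Klf1 was lower (-3.03, SE 0.85, 0.755 ± 1.54 against 6.42 ± 8.60 CPM, edgeR adjusted p = 0.00396, 19 of 20 below), a call lost with scanpy. The GFP+ mean of Klf1 lay within the floor of detection of those pools (0.187 to 2.055 CPM), so the size of its change is uncertain. In all, 3 of 8 GATA, RUNX and PU.1 partners were higher and 2 lower (median -0.20). Of the Ldb1 adaptor complex 5 of 9 tested were higher and 0 lower (median 0.98), among them Lmo1 (2.07), Ldb2 (1.78) and Ssbp3 (1.15). The call of Lmo1 was lost with scanpy and with ERCC scaling (1.91, edgeR adjusted p = 0.0159). Of the Id genes 3 of 4 were higher and 0 lower (median 1.57), among them Id3 (1.88) and Id2 (1.26).

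Of 9 corepressors tested in HCs 3 were higher and 0 lower (median 0.22), led by Gfi1b, a partner of Gata1 in megakaryocytes (3.04, SE 0.59, 79.3 ± 71.8 against 9.48 ± 12.5 CPM, edgeR adjusted p = 6.05e-05, 19 of 20). Of 14 other ETS factors 1 was higher, Ets1 (1.91), and 3 lower, among them Etv5 (-1.23) and Ets2 (-1.05), with a median of -0.17. Of 14 haematopoietic targets 7 were higher and 4 lower (median 1.89), led by the megakaryocyte genes Gp9 (4.51), Pf4 (3.82) and Itga2b (3.68, SE 0.56, 306.9 ± 312.9 against 23.9 ± 35.4 CPM, edgeR adjusted p = 1.4e-06, 20 of 20). Of 17 endothelial targets 11 were higher and 1 lower (median 1.17), led by Myct1 (4.28), Esam (4.16) and Vwf (3.91).

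In HCs against ECs, 24.7% of all genes tested were higher and 18.6% lower in GFP+ pools, and 18.2% and 20.1% in GFP- pools. With ERCC scaling the shares in GFP+ pools were 46.4% and 7.8%. All 19 endothelial targets were lower in both GFP+ and GFP- pools (medians -5.15 and -5.59), with Sox17 at -7.67 in GFP+ and Emcn at -7.61 in GFP- pools. Cdh5 in this list and Itga2b (CD41) in the haematopoietic list were used to sort the cells, so their changes are no independent result. Haematopoietic targets were mostly higher, 8 higher and 3 lower of 14 in GFP+ pools (median 3.61) and 10 and 3 of 14 in GFP- pools (median 3.11), with Pf4 at 7.77 and Vav1 at 6.02. Of 16 other ETS factors 1 was higher and 8 lower in GFP+ pools (median -0.54; 4 and 6 with ERCC scaling) and 2 higher and 9 lower in GFP- pools (median -0.89), with Fev at -7.55 and Ets1 at -4.97. Of 8 GATA, RUNX and PU.1 partners 3 were higher and 2 lower in GFP+ pools (Gata1 at 7.74, Gata2 at -2.67) and 4 higher and 1 lower in GFP- pools (Spi1 at 6.92, Runx1 at 5.84).

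Of the Ldb1 adaptor complex 2 of 9 were higher and 3 lower in both kinds of pools, with Ldb2 lower (-3.27 in GFP+ and -4.96 in GFP- pools) and Lmo4 higher (1.09 and 2.06), and with ERCC scaling 6 were higher and 1 lower in GFP+ pools. Of the Id genes 0 of 4 were higher and 2 lower in both, Id3 at -2.22 and -3.34 and Id1 at -1.91 and -1.25. Of 9 corepressors 1 was higher and 3 lower in both, with Gfi1b higher (6.24 and 4.66).

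At E11.5 the partner lists are given first with all passing pools and then without those against their label. Of all genes tested in MCs 2.21% were higher and 2.15% lower, then 5.52% and 4.89%. In MCs, 0 higher and 1 lower of 9 genes of the Ldb1 adaptor complex were called, then 0 and 4. Of 4 Id genes 2 were higher, then 3 (Id4 at 1.36, then 1.55). Of the other ETS factors 3 were higher, then 3 (Etv1 at 2.22, then 2.802), and of 12 endothelial targets 1 was higher, then 2 (Smad6 at 1.17, then 1.35). With ERCC scaling of all passing pools Etv1 (2.02, edgeR adjusted p = 0.0133) and Smad6 (1.06, edgeR adjusted p = 0.0101) lost their calls. For 5 GATA, RUNX and PU.1 partners edgeR called 0 with all passing pools (3 at an unadjusted p under 0.05, 0 by DESeq2, 1 by scanpy), then 2 higher, Zfpm1 (2.94) and Gata3. For the corepressors it called 0 of 7 in both (1 at an unadjusted p under 0.05 in both, 0 by DESeq2 and scanpy with all passing pools), and for 6 haematopoietic targets 0 (2 at an unadjusted p under 0.05, 1 by DESeq2, 0 by scanpy), then 2 of 5, Cd34 (1.96) and Kit (0.86). Gata3 itself was not called in MCs with all passing pools (-0.66, SE 0.52, edgeR adjusted p = 0.496) and was without those pools (1.88, SE 0.22, edgeR adjusted p = 8.98e-08, 17 of 17 GFP+ pools above the GFP- median).

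Of all genes tested in SNS cells 2.01% were higher and 1.86% lower, then 4.94% and 5.48% without the pools against their label. In SNS cells, 2 higher and 0 lower of 10 genes of the Ldb1 adaptor complex were called, then 3 and 0 (Lmo1 at 1.47, then 2.02). Of 4 Id genes 2 were higher in both (Id1 at 0.91, then 1.12), and of 5 GATA, RUNX and PU.1 partners 1 was higher, Gata3 (1.86), then 2 (Gata3 at 2.10 and Zfpm1 at 1.07). The calls of Lmo1 and Gata3 with all passing pools were lost with scanpy. With all passing pools edgeR called 0 of 7 corepressors (1 at an unadjusted p under 0.05, 1 by DESeq2, 0 by scanpy), 0 of 14 other ETS factors (3, 1 and 0), 0 of 6 haematopoietic targets (3, 0 and 0) and 0 of 11 endothelial targets (1, 0 and 0). Without those pools it called Hdac1 higher (0.28), Etv4 lower (-1.08) and Kit higher (1.85), and 0 of 9 endothelial targets (2 at an unadjusted p under 0.05).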

How the data were processed

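The authors deposited HTSeq counts, read counts per Ensembl gene for 160 Smart-seq2 pools of 20 cells, with 92 ERCC RNAs. The labels name GSNAP, HTSeq 0.5.3p3 and mm10, whereas the study's methods name STAR, and the files do not settle which was used. Strand and overlap settings are not stated, and a median of 16.3% of reads was ambiguous. Identifiers were matched to GENCODE M21. Pools passed with at least 500000 reads, at least 20% of reads on genes and at most 20% mitochondrial and ERCC reads, limits that the study set, and 153 did. The study's further limit on high coverage genes was not applied, since that term is not defined, and each passing pool had at least 9888 genes with 10 counts or more.

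Tests ran in R 4.3.3 with edgeR 4.0.16, using robust quasi-likelihood fits and TMM, with 1 fit per cell type or stage. Alternatives used DESeq2 1.42.0, scran 1.30.0, scanpy 1.11.5, ERCC size factors, other filters and thresholds. The fits were tested on simulated data, and no result given here rests on that test. Correlations used 100000 permutations in Python 3.11.15 with numpy 2.4.6, pandas 2.3.3 and scipy 1.17.1, and figures matplotlib 3.10.9. Of each partner list, at most 3 called genes with the largest change and at least 5 CPM in the higher population are named, and Gata1, Gata2, Gata3, Runx1 and Spi1 may be given anywhere. The genes described and the lists were chosen with earlier results of these data known.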

Additional observations from a re-analysis of the deposited data

Results flagged for a closer look

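Differences of the GFP change between cell types passed the threshold for 3 of the 10 genes at E10.5, beside 22.7% of all genes tested. They did so for 2 of 7 genes tested at E11.5, beside 9.66% of all genes tested. At E10.5 the EC change exceeded the HC change by 1.504 for Lyl1, by -0.71 for Tcf4 and by 2.11 for Cbfa2t3. The Lyl1 call was lost with ERCC scaling (0.71, edgeR adjusted p = 0.0642, range 4.61e-07 to 0.0642 over 8 alternatives), and the Tcf4 call with DESeq2's size factors (edgeR adjusted p = 0.01) and without the gene filter (edgeR adjusted p = 0.0156, range 0.00109 to 0.0156). At E11.5 the MC change exceeded the SNS change by -0.74 for Tcf4 and by 4.49 for Cbfa2t3. In SNS pools as labelled Cbfa2t3 did not pass the filter, so its difference does not measure a GFP change in SNS cells. Without the pools against their label Cbfa2t3 was at 2.17 and not called (edgeR adjusted p = 0.0361, range 0.000455 to 0.0361 over 7 alternatives), and with all 160 pools, those that failed included, the Tcf4 call was lost (edgeR adjusted p = 0.0115, range 0.000233 to 0.0115). The cause was not tested.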

How the results depend on the processing

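No paired analysis was possible because the columns carry no pool number that ties a GFP+ to a GFP- pool, so the planned replicate block could not be run. The alternatives without the E11.5 pools against their label, without the EC pool of high mesenchymal sum and without the HC pool of high sympathetic sum were chosen after seeing the data. Of the alternative log2 fold changes of the genes, 20 were reversed in sign, 17 were classed as stronger and 27 as weaker. The other 618 were classed as the same, within a tolerance not given here, and are not equal values. The cause was not tested.

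Reversed values with ERCC scaling in ECs were Tcf3 -0.23, Erg -0.28 and Etv6 -0.47, all above the median of all genes under that scaling (-0.60). In HCs Tcf4 was -0.0450 with ERCC scaling, -0.0644 with scanpy and -0.10 without the HC pool of high sympathetic sum. In SNS cells Ldb1 was 0.26, Fli1 -0.0815 and Etv6 0.11 with ERCC scaling, and Fli1 was -0.99 without the pools against their label and -0.33 with scanpy. For HCs against ECs with ERCC scaling, Tal1 was 0.0874, Fli1 0.60 and Etv6 0.33 in GFP+ pools and Etv6 0.0222 in GFP- pools. In the E10.5 interaction Tcf3 was 0.0306 with DESeq2 size factors and 0.0604 without the gene filter, and Erg was -0.62 and Etv6 -0.31 with ERCC scaling. In the E11.5 interaction Ldb1 was -0.0257 with ERCC scaling. The ERCC-scaled values are to be read beside the medians of all genes under that scaling. These were 0.35 in SNS cells, -0.0077 in HCs, 0.81 and 0.0620 for HCs against ECs in GFP+ and GFP- pools, and -0.75 and -0.37 in the E10.5 and E11.5 interactions.

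The counts listed here leave out many small moves. Counts that moved in ECs (5424 genes, 8 members) were 4 members and 6636 genes with ERCC scaling, and 2469 genes and 2 members at a log2 fold change beyond 1. Scanpy called 6 members (5524 genes) in ECs. The edgeR fits with all pools, with scran's size factors, of all populations and without the pool of high mesenchymal sum called 7 each (5350, 5419, 6382 and 5318 genes). In HCs (4307 genes, 0 members) the counts that moved were 1 member with DESeq2 size factors (4198 genes) and 1 with DESeq2's Wald test (4630 genes). There were 2 members with a fit of all populations (5305 of 20080 genes), 2 at an adjusted p under 0.05 (6027 genes), and 2457 genes beyond 1. In MCs (698 genes, 1 member) they were 381 genes with ERCC scaling, 1585 genes and 2 members without the pools against their label, 1130 with a fit of all populations, 1514 genes and 2 members at 0.05, and 279 beyond 1. In SNS cells (625 genes, 0 members) they were 1013 with ERCC scaling, 1631 genes and 1 member without those pools, 1334 at 0.05 and 339 beyond 1. For HCs against ECs in GFP- pools (6832 genes, 8 members) 5 members (5800 genes) were called with ERCC scaling. With DESeq2 size factors (6838 genes), or without the EC pool of high mesenchymal sum (6840 genes), 7 were called. In GFP+ pools (7721 genes, 7 members) 6 were called with ERCC scaling (9676 genes) and 8 at 0.05 (9554 genes). In the E10.5 interaction (4060 genes, 3 members) there were 5 members and 5885 genes at 0.05. In the E11.5 interaction (1713 genes, 2 members) there was 1 member with all 160 pools, those that failed included (1636 genes). There was 1 without the pools against their label (1795 genes), and there were 3 members and 2961 genes at 0.05. Of E11.5 pairs, 0 passed without those pools.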
